A study of Rattus norvegicus with 6 samples.

Results

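The collagen chain genes of the rat were examined at the site of a healing femoral fracture: every protein-coding row of the gene tables named Col, a type number, a and a chain number. The rule found 43 chains among 34538 genes, of which 11 were fibrillar, 8 network-forming, 9 FACIT (fibril-associated collagens with interrupted helices), 5 of the beaded filament type, 4 transmembrane, 1 hypertrophic (Col10a1) and 5 of other types. Collagen chains wind around each other into a helix, are secreted, and form the fibrils, sheets and filaments that give connective tissue its strength. Bone matrix is built on type I fibrils. Fracture repair also passes through granulation tissue rich in type III collagen and, in many fractures, a cartilage callus of types II, IX, X and XI that is later replaced by bone.

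All 6 libraries came from female Sprague Dawley rats, an outbred stock, that had lost both ovaries at 8 weeks of age to induce osteoporosis. The left femur was cut across at midshaft 12 weeks afterwards and held by an intramedullary nail of 1.2 mm. Around the break, 3 samples had received the gel alone (Gel, the labelled control) and 3 the MgPA-Gel adhesive (MOF_Gel in the sample titles), and the RNA is that of 1 cm of femur at the fracture. The sources used here give neither the time of harvest nor any pooling of animals. The labels do not say whether each sample was a different rat, so the p-values measure how these samples vary, and that variation may be technical.

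The libraries held 13.6 to 18.2 M counts. Mitochondrially encoded genes made up 24.0% of Gel 1 and 25.9% of MgPA-Gel 1, but 5.29% to 8.83% of the other 4 libraries. Skeletal muscle markers also set MgPA-Gel 1 apart: 5 of 6 listed genes were matched, and their summed level was 28234 CPM (counts scaled to a common library size adjusted by TMM, the trimmed mean of M values) there, 82.2 and 1159 CPM in MgPA-Gel 2 and 3, and 6.30 to 408 CPM in Gel. The osteoblast markers Runx2, Sp7, Alpl, Bglap, Ibsp and Dmp1 were present in every library, with a summed level of 2474 to 4945 CPM in Gel and 2869 to 4775 CPM in MgPA-Gel. The tissue is a mixture of cells, in which fewer cells of a type and less RNA per cell cannot be told apart.

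Collagen transcripts made up a large part of all RNA at the fracture, and their share differed more between single libraries than between the groups. The 43 chains took 7.88%, 9.86% and 15.7% of all counts in Gel 1, 2 and 3, against 4.28%, 11.4% and 10.1% in MgPA-Gel 1, 2 and 3. Gel 3 was the highest and MgPA-Gel 1 the lowest, and the groups overlapped. With mitochondrial genes left out of the total the shares were 10.4%, 10.8% and 17.2% in Gel against 5.77%, 12.1% and 10.7% in MgPA-Gel, so the same libraries remained at the ends. Each exact 95% Clopper-Pearson interval of a share of all counts was at most 0.039 percentage points wide and covers counting error only.

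Levels between chains were compared as FPKM, the deposited value per kilobase of gene length. Col1a1 was the most abundant, at a mean of 10036 FPKM over the 6 libraries, followed by Col3a1 at 4236 FPKM and Col1a2 at 668 FPKM. Next came the filament chains Col6a2 and Col6a1 (601 and 501 FPKM), the fibril-diameter chain Col5a2 (418 FPKM) and the basement membrane chain Col4a1 (295 FPKM). In all, 14 chains averaged over 100 FPKM, 8 lay between 10 and 100, 9 between 1 and 10, and 12 under 1 FPKM. Fibrillar chains held 86.9% to 90.4% of the summed collagen FPKM in every library, beaded filament chains 5.25% to 6.88%, network chains 1.59% to 4.43% and FACIT chains 1.495% to 2.37%. The fibrillar share thus changed little while the summed level ran from 8956 FPKM in MgPA-Gel 1 to 29052 FPKM in Gel 3. Shares of the smaller types varied more, as the network range shows. Chains of other types held 0.493% to 1.36%, transmembrane chains 0.0889% to 0.346% and Col10a1 0.00017% to 0.0989%.

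Whether any chain differed between MgPA-Gel and Gel was asked in a fit over all genes with enough counts, which kept 36 of the 43 chains. No chain passed edgeR's quasi-likelihood test at a Benjamini-Hochberg adjusted p of 0.05 (smallest adjusted p = 0.998), and neither did any other gene (0% of 14818 tested). At an unadjusted p under 0.05 there was 1 chain, Col17a1, with a lower mean in MgPA-Gel, beside 2.63% of all genes tested (0.844% lower and 1.78% higher). DESeq2 and limma-voom, run on the same counts, called 0 chains, where DESeq2 called 0.0681% of genes. Of the 36 chains, 18 had a lower and 18 a higher fitted mean in MgPA-Gel (log2 fold changes of -1.12 to 1.64, median -0.08), beside 45.2% of all genes with a lower one and a median of 0.03. In 2 chains, Col8a1 and Col17a1, the 3 MgPA-Gel libraries all lay below the 3 Gel libraries, and in 0 chains all above, where over all genes tested 3.62% lay wholly below and 3.26% wholly above.

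**Figure D1:**
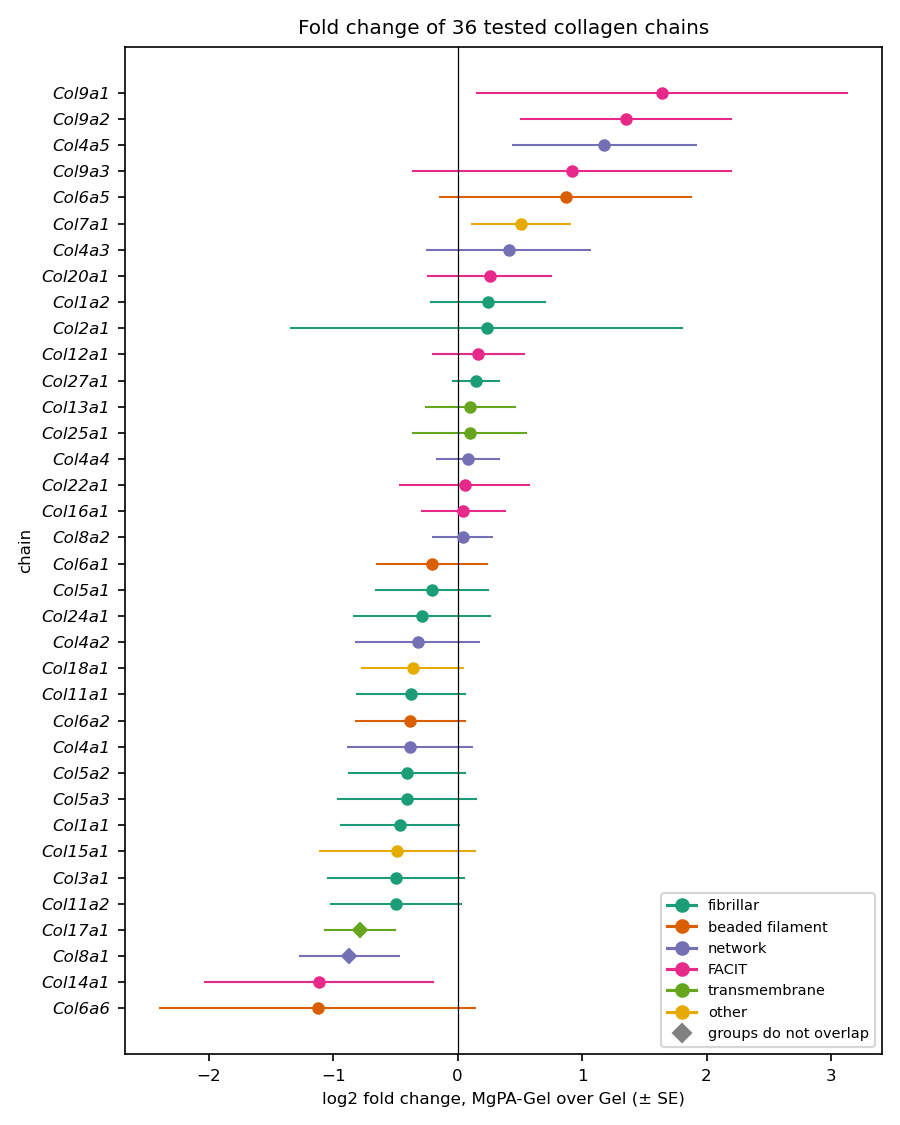
Log2 fold change of each of the 36 tested chains, MgPA-Gel over Gel, with the SE of the fit; colours give the collagen type and diamonds mark chains whose groups do not overlap. The values run from -1.12 (Col6a6) to 1.64 (Col9a1), and the 2 diamonds are Col8a1 at -0.87 and Col17a1 at -0.79.

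Single libraries stood at the ends for much of the family. Gel 3 had the highest CPM in 18 of the 36 tested chains, where it was highest in 17.4% of all genes tested, and MgPA-Gel 1 had the lowest in 19, where it was lowest in 28.3% of all genes. The highest library exceeded the lowest by a median of 3.73-fold per chain, beside 1.93-fold per gene over all genes tested with no library at 0. Among the 14 chains averaging over 50 FPKM, MgPA-Gel 1 was lowest in 13, the exception being Col1a2, and Gel 3 was highest in 9. Of those 14, 11 had a lower mean in MgPA-Gel (median log2 fold change -0.37). With 1 library left out the count was 12 without Gel 1 (median -0.41), 13 without Gel 2 (median -0.30) and 8 without Gel 3 (median -0.07). It was 6 without MgPA-Gel 1 (median 0.01), 13 without MgPA-Gel 2 (median -0.64) and 11 without MgPA-Gel 3 (median -0.40). The part of the muscle and mitochondrial transcripts of MgPA-Gel 1 in its low collagen values was not tested.

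**Figure D2:**
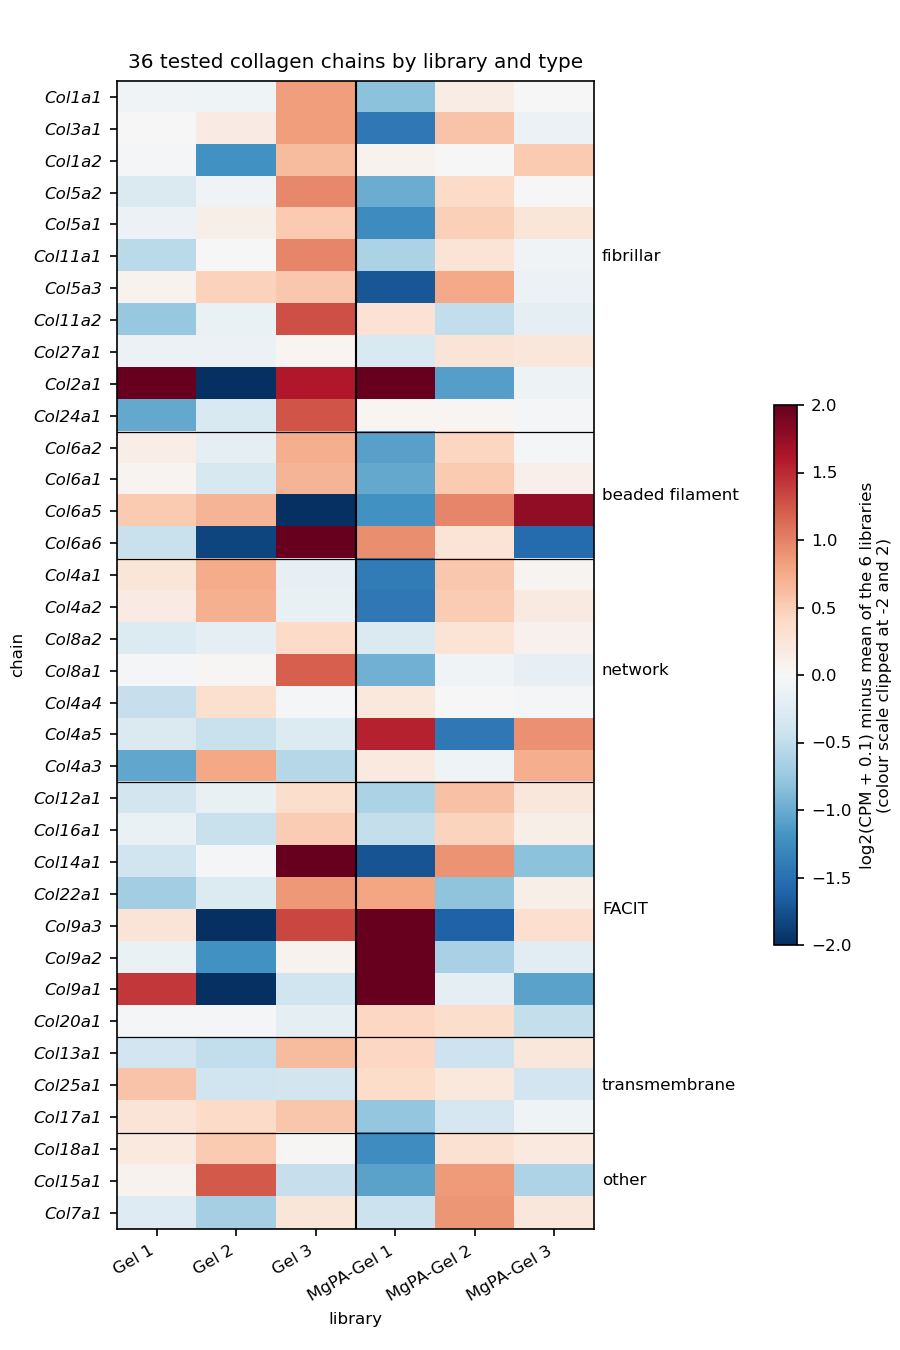
Each row is 1 of the 36 tested chains, grouped by type, and each column a library; colour gives log2(CPM + 0.1) minus the chain's mean over the 6 libraries, clipped at -2 and 2. Gel 3 is the highest library in 18 chains and MgPA-Gel 1 the lowest in 19, while Col2a1, Col4a5, Col20a1 and the 3 Col9 chains are highest in MgPA-Gel 1.

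Of the 11 fibrillar chains 8 had lower and 3 higher means in MgPA-Gel, with 0 called and a median of -0.37. Col1a1 (ENSRNOG00000003897, chromosome 10, 82745801 to 82762789 by the deposited coordinates, of a build that these sources do not name) encodes the α1 chain of type I collagen. It was at 52711, 52103 and 98357 CPM in Gel 1, 2 and 3 against 31265.5, 61259 and 54799 CPM in MgPA-Gel. Gel 3 stood above the other 5 libraries and MgPA-Gel 1 below them, while the remaining 4 lay close together. The log2 fold change was -0.46 ± 0.48 (SE). Col3a1, the chain of the type III fibrils of granulation tissue and vessel walls, was at 18044, 20343 and 32393 CPM in Gel against 6753, 26858 and 16681 CPM in MgPA-Gel. Again Gel 3 was highest and MgPA-Gel 1 lowest, and the log2 fold change was -0.49 ± 0.56. The ratio of Col3a1 to Col1a1 in FPKM was 0.418, 0.477 and 0.403 in Gel against 0.264, 0.536 and 0.372 in MgPA-Gel, so both the lowest and the highest ratio were found in MgPA-Gel libraries.

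Col1a2, which supplies the α2 chain of type I collagen, did not follow Col1a1. It was at 2701, 1198 and 4296 CPM in Gel against 2922, 2800 and 3983 CPM in MgPA-Gel, with its lowest value in Gel 2 and a log2 fold change of 0.24 ± 0.47. Its FPKM was only 0.0299 to 0.122 of that of Col1a1, although type I collagen contains both chains. The deposited tables hold a second row described as type I collagen alpha 2, NEWGENE_621351, on the same chromosome 4 (29529854 to 29564768, beside 31534225 to 31569151 for Col1a2), with 80 to 808 counts. How the authors' counting treated reads that match both rows is not given, so the level of Col1a2 and its ratio to Col1a1 are uncertain. A run that summed this and other copy rows with their chains called 0 chains, as the main fit did. It cannot show how reads matching both rows were counted.

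**Figure D3:**
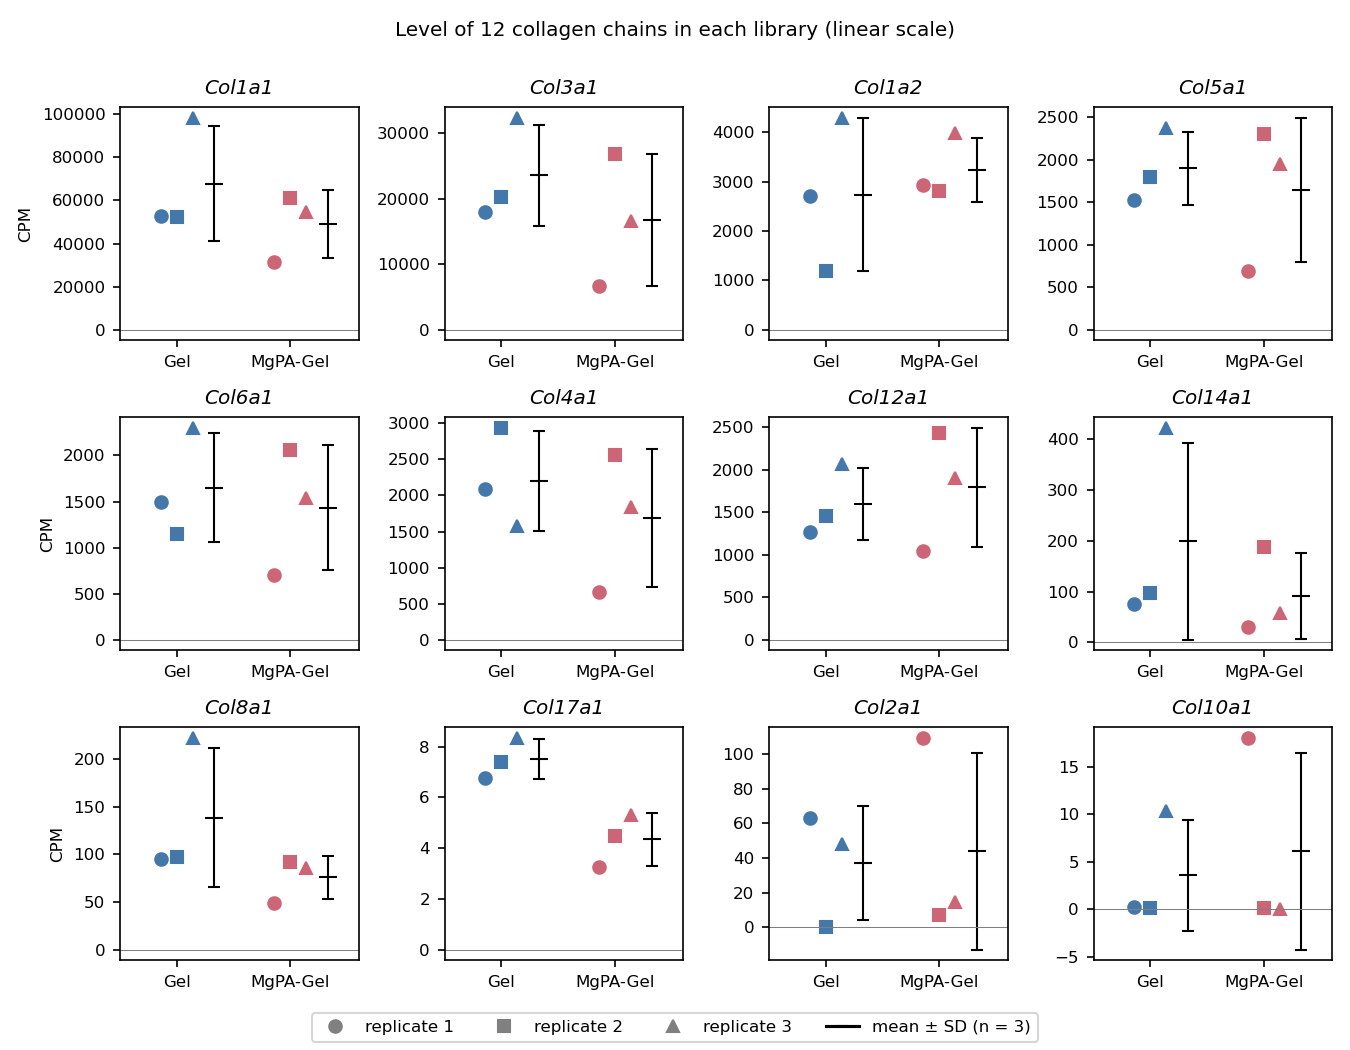
Level of 12 chains in each library as CPM on linear axes; circles, squares and triangles are replicates 1, 2 and 3, and black bars give the mean ± SD of 3 libraries. In Col1a1, Col3a1, Col5a1, Col6a1 and Col8a1 the Gel triangle is the highest point and the MgPA-Gel circle the lowest; Col2a1 and Col10a1 are carried by a few libraries of both groups.

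Type V and XI chains sit within the major fibrils, where they start fibril growth and limit fibril width. Col5a1 was at 1529, 1798 and 2371 CPM in Gel against 690.02, 2302 and 1953 CPM in MgPA-Gel (log2 fold change -0.20 ± 0.46). MgPA-Gel 1 stood well below the other 5 libraries. Col5a2 and Col5a3 differed by -0.41 ± 0.47 and -0.41 ± 0.56. Col11a1, also made by osteoblasts, was at 724, 1048 and 2081 CPM in Gel against 682, 1283 and 1008 CPM in MgPA-Gel (-0.37 ± 0.44), with Gel 3 well above the rest. Col11a2 was at 145, 224 and 599.8 CPM in Gel against 299, 173 and 214 CPM in MgPA-Gel (-0.50 ± 0.53), again led by Gel 3. A row described as an alpha-2(XI) copy, LOC100911886, had 182 counts in Gel 3 and 1 to 28 in the others, so the split of reads between these rows is uncertain. Without Gel 3 the log2 fold changes of Col11a1 and Col11a2 were 0.14 and 0.30. Of the late-described fibrillar chains, Col27a1 was the steadiest, at 48.6 to 71.8 CPM over the 6 libraries (0.15 ± 0.19), and Col24a1, a chain of developing bone, was at 39.1 CPM in Gel 3 and 7.95 to 16.7 CPM elsewhere (-0.28 ± 0.55).

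Cartilage chains were present at low levels in some libraries of both groups. Col2a1 (chromosome 7, 139455242 to 139483997), the main fibrillar chain of cartilage, was at 63.3, 0.347 and 48.3 CPM in Gel 1, 2 and 3 against 109, 7.38 and 14.9 CPM in MgPA-Gel. Its counts ran from 6 in Gel 2 to 1750 in MgPA-Gel 1, and no order of the groups can be read from a log2 fold change of 0.23 ± 1.58. Col9a1, Col9a2 and Col9a3, the chains of the FACIT type IX collagen on the surface of cartilage fibrils, had their highest values in MgPA-Gel 1. Col9a1 was at 3.08, 0.0578 and 0.806 CPM in Gel against 10.9, 0.946 and 0.468 CPM in MgPA-Gel, and its log2 fold change of 1.64 ± 1.49 was -0.88 without MgPA-Gel 1. Col9a2 was at 1.58, 0.693 and 1.83 CPM in Gel against 7.94, 1.07 and 1.46 CPM in MgPA-Gel (1.35 ± 0.85), and Col9a3 differed by 0.92 ± 1.28. Without MgPA-Gel 1 the value of Col9a2 was -0.10.

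Col10a1 (chromosome 20, 41184287 to 41189633), the network chain that marks hypertrophic chondrocytes, had 4, 2 and 141 counts in Gel 1, 2 and 3 against 289, 3 and 1 in MgPA-Gel, and was too sparse for the test. It was thus found chiefly in 1 library of each group, Gel 3 and MgPA-Gel 1, and its FPKM was 0.475 and 0.367 of that of Col2a1 there. Gel 1, with Col2a1 at 63.3 CPM, held only 4 counts of Col10a1. Nt5dc1 overlaps Col10a1 on the opposite strand with 107 to 223 counts per library, and without a stated strand these rows cannot be fully separated. The chondrocyte list (8 of 8 genes matched) had a summed level of 150.5 to 495 CPM in Gel and 191 to 284 CPM in MgPA-Gel, highest in Gel 3. Its most abundant members, Acan and Comp, were highest in Gel 3, at 297 and 159.5 CPM, beside 103 and 37.1 CPM in MgPA-Gel 1, and Sox9 was highest there too, at 18.3 CPM. Hapln1, Snorc and Cnmd were instead highest in MgPA-Gel 1, at 32.9, 7.81 and 4.38 CPM. Matn3 had its highest values in Gel 3 and MgPA-Gel 1, at 3.59 and 3.56 CPM, and Matn1 had 0 counts in all 6 libraries. Of 3 listed hypertrophic chondrocyte genes, Ihh and Mef2c were highest in MgPA-Gel 1, at 3.56 and 275 CPM. Pth1r was highest in Gel 3, at 287 CPM. Ihh was lower in Gel 3, at 0.66 CPM, than in Gel 1 and MgPA-Gel 3, at 1.03 and 1.46 CPM. The part of cartilage content in these values was not tested.

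The other FACIT chains link fibrils to their surroundings. Col12a1, found in periosteum, tendon and loaded matrix, was at 1264, 1459 and 2069.7 CPM in Gel against 1045, 2439 and 1898 CPM in MgPA-Gel (log2 fold change 0.17 ± 0.37). Col16a1 was at 542, 436 and 849 CPM in Gel against 429, 812 and 646 CPM in MgPA-Gel, with overlapping groups (0.05 ± 0.34). Col14a1, a chain of mature fibrous tissue, was at 76.3, 98.03 and 422 CPM in Gel against 30.3, 188 and 57.2 CPM in MgPA-Gel. Its log2 fold change of -1.12 ± 0.92 was 0.048 without Gel 3. Of the 5 fibroblast markers Dpt and Dcn were highest in that library, at 593 and 1891 CPM, Lum and Pdgfra were highest in MgPA-Gel 2, and Pi16 was lowest in Gel 3, at 15.8 CPM. Their summed level was 4504, 5688 and 7352 CPM in Gel against 3348, 8977 and 4724 CPM in MgPA-Gel. Of the 3 tendon and ligament markers Tnmd was highest in Gel 3, at 38.3 CPM, whereas Scx and Mkx were highest in MgPA-Gel 1. The part of fibrous tissue in the Col14a1 value was not tested. Col22a1, a chain of tissue junctions such as muscle to tendon, reached 80.3 CPM in Gel 3 and 76.4 CPM in MgPA-Gel 1, beside 25.1 to 47.8 CPM in the others (0.06 ± 0.53). Of 8 tested FACIT chains 1 had lower and 7 higher means in MgPA-Gel, with 0 called and a median of 0.21; 3 of the 7 are the Col9 chains led by MgPA-Gel 1.

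Type VI collagen forms the beaded filaments around cells. Col6a1 was at 1498, 1149.7 and 2302 CPM in Gel against 706, 2058 and 1537.5 CPM in MgPA-Gel (log2 fold change -0.20 ± 0.45), and its value without MgPA-Gel 1 was 0.12. Col6a2, its partner in the filament, was at 2273, 1818 and 3437 CPM in Gel against 969, 2789.8 and 2033 CPM in MgPA-Gel (-0.38 ± 0.44). The third chain of the assembly, Col6a3, was not analysed under that symbol; the row AABR07068316.1, described as collagen type VI alpha 3 and classed as a processed transcript, lay outside the rule and was at 1751, 1567 and 2805 CPM in Gel against 845, 2056 and 1749 CPM in MgPA-Gel (-0.40 ± 0.40). All of these shared one order of libraries at the extremes, Gel 3 first and MgPA-Gel 1 last. Col6a5 went the other way in Gel 3, at 1.98 CPM there beside 20.3 and 22.6 CPM in Gel 1 and 2, and stood at 6.00, 27.8 and 48.4 CPM in MgPA-Gel 1, 2 and 3 (0.87 ± 1.02, and 0.17 without MgPA-Gel 3 or 0.34 without Gel 3). Col6a6 differed by -1.12 ± 1.27, on 3 to 81 counts per library.

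Network-forming type IV collagen is the scaffold of basement membranes around vessels, muscle fibres and nerves. Col4a1 (chromosome 16, 83522162 to 83632153) was at 2082, 2939 and 1570.2 CPM in Gel against 666, 2559 and 1836 CPM in MgPA-Gel (log2 fold change -0.38 ± 0.51). Col4a2 was at 785, 1143 and 631 CPM in Gel against 259, 998 and 792 CPM in MgPA-Gel (-0.32 ± 0.50). For both chains Gel 2 was highest and MgPA-Gel 1 lowest, and Gel 3, which led most fibrillar chains, was the lowest of the Gel libraries. Without MgPA-Gel 1 their log2 fold changes were 0.0003 and 0.069. Endothelial markers (4 of 5 matched) were also highest in Gel 2, at a summed 538 CPM. Unlike the 2 chains they were lowest in Gel 3, at 269 CPM, with 342 CPM in MgPA-Gel 1 and 320.4 to 395 CPM over MgPA-Gel. Of these markers Emcn was lowest in MgPA-Gel 3, at 41.9 CPM. Mural markers (4 of 4 matched) had a summed 410 to 514 CPM in Gel. Their sum was lowest in MgPA-Gel 1, at 334 CPM, and highest in MgPA-Gel 2, at 555 CPM. The members differed: Rgs5 and Notch3 were lowest in MgPA-Gel 1, Myh11 in Gel 1 and Kcnj8 in MgPA-Gel 3. Only Rgs5 was highest in MgPA-Gel 2. The part of vessel content in the Col4a1 and Col4a2 values was not tested.

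Col4a1 and Col4a2 lie head to head and kept a nearly fixed ratio. The FPKM of Col4a2 relative to Col4a1 was 0.502, 0.518 and 0.535 in Gel against 0.517, 0.519 and 0.575 in MgPA-Gel. The ratio thus varied by 1.14-fold while Col4a2 varied by 4.42-fold and Col4a1 by 4.41-fold in FPKM over the same libraries. A steady ratio was not particular to this pair. That of Col6a2 to Col6a1, both on the plus strand, varied by 1.20-fold while the chains varied by 3.54-fold and 3.25-fold. By the deposited coordinates Col4a2 begins at 83438561 on the minus strand and Col4a1 at 83522162 on the plus strand, which is much further apart than in RefSeq. In the RefSeq promoter table (GRCr8, a build that may differ from that of the deposited tables) their transcription starts point away from each other with 76 bases between them. Their promoter windows of 250 bases before to 50 after the start therefore share one stretch. It is shown because these chains moved together from library to library, with the bases between the starts in capitals:
Col4a1 and Col4a2, chr16:84885471-84885646, plus strand: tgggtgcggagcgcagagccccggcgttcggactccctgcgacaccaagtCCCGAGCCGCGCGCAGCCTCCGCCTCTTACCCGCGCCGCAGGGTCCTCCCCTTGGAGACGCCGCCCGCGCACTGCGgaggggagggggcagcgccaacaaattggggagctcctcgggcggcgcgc
Both 300-base windows hold CCAAT and GGGCGG on 1 strand or the other and neither holds TATAAA, where 37.5%, 33.1% and 14.2% of all 33469 windows hold these letters. Of the 37 windows of the 34 chains in that table, 12, 20 and 4 hold them. These are matches of letters, searched on both strands, and not tests of any factor. The part of the shared stretch in the steady ratio was not tested.

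The other type IV chains were scarce. Col4a3 and Col4a4, head-to-head partners of specialised basement membranes with 412 bases between their starts in the same table, were at 0.343 to 1.44 CPM and 8.02 to 13.8 CPM. Their windows share only the stretch below, all of it between the starts:
Col4a3 and Col4a4, chr9:91323740-91323827, plus strand: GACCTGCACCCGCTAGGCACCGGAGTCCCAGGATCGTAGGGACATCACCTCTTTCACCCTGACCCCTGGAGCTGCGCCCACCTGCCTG
The FPKM ratio of Col4a4 to Col4a3 ran from 4.68 to 14.3, on 5 to 25 counts of Col4a3, so counting error is large in it. Col4a5 was at 1.23, 1.098 and 1.25 CPM in Gel against 4.63, 0.505 and 2.98 CPM in MgPA-Gel (log2 fold change 1.18 ± 0.74), both above and below the Gel libraries. Col4a6, at 0 to 3 counts, was too sparse for the test.

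Type VIII collagen, a short network chain of vessel walls and of the Descemet membrane of the eye, supplied 1 of the 2 chains without overlap. Col8a1 (chromosome 11, 44877859 to 45007891) was at 95.2, 97.9 and 223 CPM in Gel against 49.6, 92.2 and 85.9 CPM in MgPA-Gel. All 3 MgPA-Gel libraries lay below all 3 Gel libraries, but MgPA-Gel 2 was close to Gel 1. The log2 fold change was -0.87 ± 0.41 (edgeR adjusted p = 0.998) and -0.36 without Gel 3. Its relative Col8a2 was at 115, 122 and 181 CPM in Gel against 114, 169 and 147 CPM in MgPA-Gel (0.04 ± 0.24). The FPKM ratio of Col8a2 to Col8a1 was therefore 1.25, 1.29 and 0.837 in Gel against 2.38, 1.89 and 1.77 in MgPA-Gel, without overlap.

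Among transmembrane collagens, Col17a1 (chromosome 1, 267417459 to 267463705), a hemidesmosome component known best from skin, was at 6.78, 7.39 and 8.35 CPM in Gel against 3.25, 4.48 and 5.33 CPM in MgPA-Gel. The groups did not overlap, on 99 to 128 counts per Gel library and 52 to 91 per MgPA-Gel library. The log2 fold change was -0.79 ± 0.29 (edgeR adjusted p = 0.998), and lay between -0.96 and -0.41 in every alternative run, the latter on the log2(FPKM + 1) scale. The keratinocyte genes Krt5 and Krt14 had 0 counts in all 6 libraries, which allows up to 3 counts per library. Col13a1, a chain of neuromuscular and other cell junctions, was at 43.9, 40.5 and 88.8 CPM in Gel against 76.4, 42.97 and 66.5 CPM in MgPA-Gel (0.10 ± 0.36). Col25a1, a chain of neurons, had 44, 26 and 21 counts in Gel against 42, 37 and 26 in MgPA-Gel (0.10 ± 0.46), beside a row described as an alpha-1(XXV) copy with 2 to 17 counts. Col23a1, at 0 to 6 counts, was too sparse for the test.

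Of the remaining chains, Col18a1, the basement membrane precursor of endostatin, was at 736, 924 and 650.5 CPM in Gel against 272, 794 and 732 CPM in MgPA-Gel (log2 fold change -0.36 ± 0.41). Its highest and lowest libraries, Gel 2 and MgPA-Gel 1, were those of Col4a1. Col15a1, its close relative, was at 89.8, 199.7 and 61.8 CPM in Gel against 40.9, 155 and 55.5 CPM in MgPA-Gel (-0.48 ± 0.63), with the same libraries at the ends. A row described as alpha-1(XV)-like, LOC108348074, held 537 to 1960 counts, comparable to the 654 to 3458 of Col15a1, so the split between these rows is uncertain. Col7a1, the chain of anchoring fibrils, was at 8.43, 6.30 and 11.9 CPM in Gel against 7.44, 18.7 and 11.8 CPM in MgPA-Gel (0.51 ± 0.40). Col26a1, Col28a1, the FACIT chain Col19a1 and the filament chain Col6a4 had 0 to 25 counts per library and were not tested, while Col20a1, with 9 to 17 counts, differed by 0.26 ± 0.50.

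Pairs of chains, most of them partners in one assembly and some only found in the same tissue, were compared through their FPKM ratios, which do not depend on library size. Of 14 ratios computed, 2 did not overlap between the groups, and no test was applied. Levels of single genes did not overlap in 6.88%, which is not a background for ratios, and none was computed for these. The ratios of Col5a3 to Col5a1, Col4a4 to Col4a3, AABR07068316.1 to Col6a1 and Col5a2 to Col3a1 were not planned. The first was Col8a2 to Col8a1, given above. The second was Col6a2 to Col6a1, at 1.27, 1.32 and 1.25 in Gel against 1.14, 1.13 and 1.103 in MgPA-Gel. Each of these chains varied over 3-fold between libraries (3.54-fold and 3.25-fold). Without a background, neither ratio is read as a difference between the groups. Col5a2 to Col5a1 ran from 1.28 to 2.05 and Col11a2 to Col11a1 from 0.164 to 0.534, both with overlap.

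**Figure D4:**
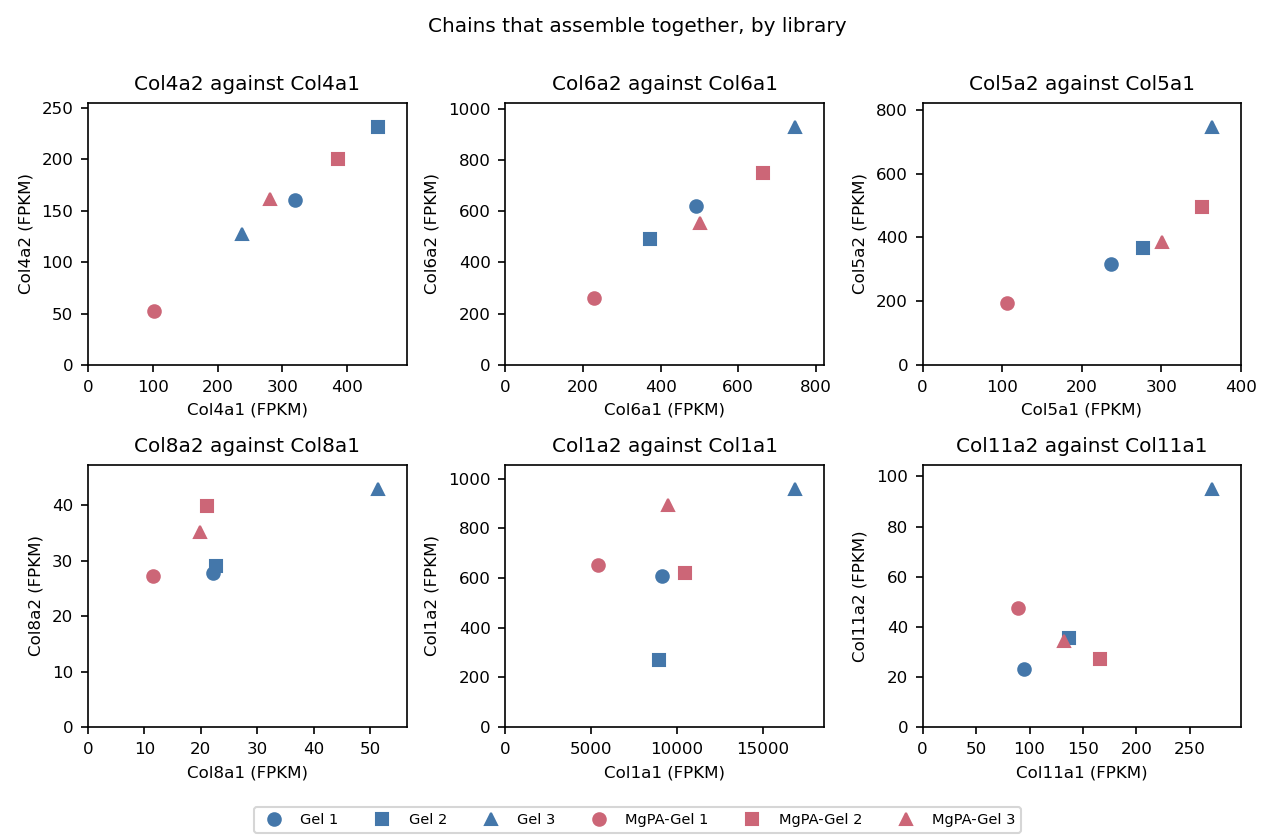
FPKM of 6 pairs of chains that assemble together, 1 point per library on linear axes from 0; blue is Gel, red is MgPA-Gel, and circles, squares and triangles are replicates 1, 2 and 3. Col4a2 and Col4a1 lie close to a straight line through 0 (ratio 0.502 to 0.575), whereas Col1a2 and Col1a1 do not (0.0299 to 0.122).

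Genes that process, bind or cut collagen were read in the same fit. Of 33 listed processing genes 29 were tested, and 0 passed edgeR's test. Means in MgPA-Gel were lower for 24 and higher for 5, beside 45.2% of all genes with a lower one. The median log2 fold change was -0.22 beside 0.03 over all genes. The groups did not overlap in 2 lower genes and 1 higher gene of the list. Over all genes tested, 3.62% lay wholly below and 3.26% wholly above. The higher gene was Tmem38b, named after its values were seen, with the largest difference of the list (1.24 ± 0.48). It was at 24.0, 19.2 and 19.6 CPM in Gel against 90.8, 26.7 and 31.2 CPM in MgPA-Gel. The list's summed level, much of it Sparc, was 19814, 21622 and 31816 CPM in Gel against 17264, 26141 and 19942 CPM in MgPA-Gel. Gel 3 was thus highest and MgPA-Gel 1 lowest, with overlapping groups. The count of lower processing genes was not repeated with libraries left out. The most abundant were Sparc, a collagen-binding matrix protein (-0.22 ± 0.36), Serpinh1, the collagen chaperone HSP47 (-0.24 ± 0.33), and P4hb, a subunit of prolyl hydroxylase (-0.17 ± 0.26). Serpinh1 was at 2006, 2206 and 3013 CPM in Gel against 1420, 2816 and 1864 CPM in MgPA-Gel, with Gel 3 highest and MgPA-Gel 1 lowest as for Col1a1. Of 8 tested collagen receptors 0 passed, 3 had lower and 5 higher means (median 0.03), led in abundance by Itgb1, Mrc2 and Itga11, which differed by -0.11 ± 0.26, -0.24 ± 0.26 and 0.12 ± 0.31. Of 8 tested proteases that cut collagen 0 passed, 1 had lower and 7 higher means (median 0.15). The most abundant were Ctsk, the collagenase of osteoclasts (0.22 ± 0.65), Mmp13, an interstitial collagenase of callus and cartilage (0.87 ± 0.51), and Mmp9, a gelatinase (0.29 ± 0.66). Ctsk was at 6184, 4401 and 4525 CPM in Gel against 5261, 1470 and 10837 CPM in MgPA-Gel. Mmp9 was at 1994, 1231 and 1130 CPM in Gel against 1088, 610 and 3627 CPM in MgPA-Gel. Both were highest in MgPA-Gel 3 and lowest in MgPA-Gel 2. Mmp13 was at 2562, 2001 and 2600.5 CPM in Gel against 2198, 7954 and 2978 CPM in MgPA-Gel, with MgPA-Gel 2 well above the other 5 libraries. Mmp8, the neutrophil collagenase, named after its values were seen, had the largest difference of the list (2.39 ± 1.13). It was at 13.6, 15.5 and 4.10 CPM in Gel against 33.001, 135 and 5.85 CPM in MgPA-Gel. The neutrophil markers S100a8 and S100a9 had a summed level of 151, 211 and 44.0 CPM in Gel against 653, 1844 and 142 CPM in MgPA-Gel, highest in the same libraries, MgPA-Gel 2 and 1. Their part in the protease values was not tested.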

How the data were processed

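RNA of 6 libraries (3 Gel, 3 MgPA-Gel, grouped by title) was poly-T selected, per the labels' protocols, which do not state strandedness. The tools named without roles, per the submitters' processing notes, are edgeR 3.22.5, DESeq2 1.20.0, featureCounts 1.5.0-p3, HISAT2 2.0.5, StringTie 1.3.3b and fastp. The authors deposited whole gene counts and FPKM for 34538 genes; 11692 blank rows of the count table and 2 unnamed value columns were left out. Dividing counts by length and deposited FPKM gave library sizes of 13.7 to 17.3 M, near the TMM-adjusted sizes.

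The test across 14818 genes kept by filterByExpr used TMM and the robust quasi-likelihood functions glmQLFit and glmQLFTest of edgeR 4.0.16 (R 4.3.3), two-sided, with Benjamini-Hochberg adjustment and a threshold of 0.05. It was checked on simulated data whose changes were larger than any fitted for a chain. Whether differences of the size seen here would be called was therefore not examined. Alternatives used DESeq2 1.42.0, limma 3.58.1, other scalings, filters and libraries. Fold changes are MgPA-Gel over Gel. Chi-square per degree of freedom between libraries of a group was 77.3 to 462, so none was the same library sequenced again. It cannot tell whether the libraries came from different rats. The members and gene lists were chosen with earlier results of these data known. Any chain could be named; values in all libraries were given for the 2 most abundant of each type, the 5 of smallest p in each direction, a listed set of well-known chains and a few chosen after their values were seen. Of the processing, receptor and collagenase lists, the 3 members of highest mean CPM were named. Mmp8 and Tmem38b were added after their values were seen.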

Additional observations from a re-analysis of the deposited data

How the results depend on the processing

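Under the 21 alternatives run, 0 collagen chains passed the threshold (smallest adjusted p = 0.804, for Col17a1 with DESeq2), and between 12 and 24 chains had a lower mean in MgPA-Gel. The number of genes called was 10 with DESeq2 and between 0 and 2 when 1 library was left out. With the replicate block 0 genes and 0 chains were called and 16 of 36 chains had a lower mean; same-numbered libraries correlated at 0.249, 0.200 and -0.027 in their deviations, so the numbers were not taken as pairs. Of 524 log2 fold changes of 25 chains over the alternatives, 485 kept their sign, and 6 chains (Col18a1, Col8a1, Col6a5, Col7a1, Col17a1 and Col4a5) kept it in all of them; the 39 changes of sign were all seen with libraries left out.

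Without Gel 1 and MgPA-Gel 1 the log2 fold change was 0.036 for Col6a1, 0.0073 for Col5a1, -0.26 for Col13a1 and -1.14 for Col2a1. Leaving out Gel 3 and MgPA-Gel 1 was chosen after seeing that they held the highest and the lowest summed collagen level, so this choice fixed the direction in which most chains moved and supports nothing about them. It left 12 of 36 chains, and 3 of the 14 most abundant, with a lower mean, and the log2 fold change was 0.12 for Col1a1, 0.15 for Col3a1, 0.21 for Col6a2, 0.41 for Col6a1, 0.33 for Col5a1, 0.34 for Col11a1, 0.050 for Col11a2, 0.46 for Col14a1, -1.53 for Col2a1, -0.25 for Col25a1 and -1.16 for Col9a1. With 1 library left out the ranges were -0.18 to 0.34 for Col16a1, -0.10 to 0.55 for Col13a1, -0.11 to 0.72 for Col1a2, -1.28 to 0.15 for Col15a1, -1.74 to 0.85 for Col2a1, -0.079 to 0.50 for Col25a1, -0.56 to 0.12 for Col6a1, -0.66 to 0.14 for Col11a1, -0.85 to 0.30 for Col11a2, -2.19 to 0.048 for Col14a1, -0.81 to 0.0003 for Col4a1, -0.52 to 0.16 for Col5a1, -0.70 to 0.069 for Col4a2, -0.10 to 1.78 for Col9a2, -0.88 to 3.26 for Col9a1 and -0.12 to 0.44 for Col12a1. The cause of these changes was not tested. Summing rows of copies with their chain was also chosen after seeing the data and changed no sign. Chains of few counts, such as Col4a3 and Col20a1, are limited by counting error.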
